A study of Mus musculus with 6 samples.

Results

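Narrow unmethylated valleys are short stretches of the genome that carried almost no DNA methylation in wild-type lung endothelial cells and that stood alone in methylated surroundings. Methylation was read as the level of a 1 kb tile, the percentage of methylation the table gives for that stretch. A valley tile was one whose mean level over the 3 WT samples was under 10%. A narrow valley was a run of 1 to 4 adjacent valley tiles with no other valley tile within 5 kb, and its flanks were the tiles up to 3 kb away on each side. The rule gave 13357 narrow valleys out of 15818 runs of valley tiles on chromosomes 1 to 19. Of these, 7826 were 1 tile wide, 4249 were 2 tiles, 999 were 3 tiles and 283 were 4 tiles wide. Together they held 20453 of the 26874 valley tiles, among 1954255 tiles in all, and 76103 flank tiles. The remaining runs were 430 wide canyons of at least 5 tiles and 2031 narrow runs crowded by another valley tile within 5 kb.

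The study measured lung endothelial cells, the cells that line blood vessels, sorted by flow cytometry from Dnmt3a knockout (KO) mice, 3 samples, and from wild-type (WT) mice, 3 samples. The assay was whole-genome bisulfite sequencing of tagmented DNA, which reads unmethylated cytosines as thymine. The allele, any Cre driver, the age and sex of the animals and any pooling of animals were not known from the labels. Nor is it stated that the 3 samples of a genotype came from separate animals, so the spread between them may be technical. The table holds levels without read counts, so depth is unknown and no counting interval was computed. The sort was checked at gene ends, where the lowest tile of 8 endothelial markers had 0.357 to 10.9% in KO and 0.936 to 15.7% in WT. The lowest gene-end tile of 4 epithelial markers had 0.412 to 14.6% in KO and 1.38 to 16.6% in WT, so low gene ends did not set the endothelial genes apart. Those of 4 leukocyte markers had 2.80 to 65.6% in KO and 2.04 to 66.1% in WT, and those of 4 mesenchymal markers had 0.771 to 35.7% in KO and 0.677 to 45.6% in WT. A change within cells and a change in the mixture of cells cannot be told apart in such bulk samples.

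Most CpG sites in mammalian DNA are methylated, and the exceptions lie mainly in CpG-rich promoters and other regulatory stretches. DNMT3A is a de novo methyltransferase, which methylates CpG sites that carry no methylation on either strand, while DNMT1 copies methylation onto newly made strands. TET enzymes oxidise methylated cytosine, and the edges of unmethylated stretches are places where both kinds of enzyme are known to act. Wide unmethylated canyons, found over many developmental transcription factor genes, are known from blood stem cells to change at their edges when Dnmt3a is deleted.

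The promoters of 4 narrow valleys are printed here to set valleys with large flank losses beside one whose KO flanks averaged above WT. Foxd2, Obsl1 and Fzd7 had some of the largest losses. Cacna1b had one of the highest flank differences, with KO above WT by 2.44 points. Each stretch runs from 250 bases before to 50 bases after a gene start, 5′ to 3′ on the gene's strand, from RefSeq on GRCm38.p6, the assembly that mm10 names, with CpG sites in capitals. Foxd2 lies at chr4:114908849-114909148 on the minus strand and holds 26 CpG sites. Obsl1 lies at chr1:75506403-75506702 on the minus strand and holds 8. Fzd7 lies at chr1:59481897-59482196 on the plus strand and holds 24. Cacna1b lies at chr2:24763103-24763402 on the minus strand and holds 35. The same choice of genes also gave Lhx6, a large loss, with 11 CpG sites, and Lrguk, a high flank difference, with 14. Those promoters are not printed, and so few promoters do not show how CpG number goes with the flanks.
Foxd2: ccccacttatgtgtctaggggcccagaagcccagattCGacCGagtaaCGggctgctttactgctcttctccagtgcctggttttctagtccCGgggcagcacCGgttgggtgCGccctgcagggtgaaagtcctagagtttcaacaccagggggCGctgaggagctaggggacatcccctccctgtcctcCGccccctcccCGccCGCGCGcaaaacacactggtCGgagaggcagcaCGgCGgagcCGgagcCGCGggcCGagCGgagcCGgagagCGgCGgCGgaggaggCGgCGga
Obsl1: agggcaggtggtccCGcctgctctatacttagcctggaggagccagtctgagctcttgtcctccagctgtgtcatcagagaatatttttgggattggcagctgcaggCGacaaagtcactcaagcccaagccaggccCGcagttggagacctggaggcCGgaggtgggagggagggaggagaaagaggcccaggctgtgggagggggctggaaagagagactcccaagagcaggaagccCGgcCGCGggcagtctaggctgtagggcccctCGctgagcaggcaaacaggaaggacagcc
Fzd7: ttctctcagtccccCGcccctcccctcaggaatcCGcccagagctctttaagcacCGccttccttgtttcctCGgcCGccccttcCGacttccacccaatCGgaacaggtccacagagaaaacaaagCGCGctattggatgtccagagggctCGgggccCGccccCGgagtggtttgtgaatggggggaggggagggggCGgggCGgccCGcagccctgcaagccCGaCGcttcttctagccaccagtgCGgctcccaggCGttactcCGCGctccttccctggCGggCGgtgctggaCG
Cacna1b: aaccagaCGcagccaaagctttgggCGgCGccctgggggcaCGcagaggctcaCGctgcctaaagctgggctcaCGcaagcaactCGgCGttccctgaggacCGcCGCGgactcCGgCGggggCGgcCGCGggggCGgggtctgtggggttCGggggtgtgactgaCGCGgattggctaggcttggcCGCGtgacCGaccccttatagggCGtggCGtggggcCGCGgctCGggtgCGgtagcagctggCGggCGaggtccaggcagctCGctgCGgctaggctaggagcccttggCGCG

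Inside the valleys the levels were low in both genotypes. The mean over the 20453 inside tiles was 2.74, 2.51 and 2.56% in the 3 KO samples, against 3.70, 3.67 and 3.62% in the 3 WT samples. The KO samples were all below the WT samples, 2.60 ± 0.119% against 3.66 ± 0.0438% (SD, n = 3 each), so KO minus WT was -1.06 points and a ratio of 0.710. Valleys were chosen for low WT values, so this difference was not tested. When valleys were chosen from 2 WT samples and read in the held-out WT sample, the WT means were 3.96, 3.87 and 3.76%, while KO means for the same valleys lay between 2.53 and 2.79%. With every sample scaled to one mean level the inside difference was -0.81 points. Centring each sample on its median, which takes out the -4.89 points between the KO and WT medians, gave 3.83 points, with KO above WT. The WT inside mean was smaller than that offset, so centring had to turn the sign and says nothing about the valleys. Just inside the limit, the 1161 valley tiles with a WT mean of 9 to 10% averaged 6.27% in KO and 9.49% in WT. Just outside it, the 585 flank tiles with a WT mean of 10 to 11% averaged 6.53% in KO and 10.5% in WT.

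Single tiles were compared with limma across all 1954255 tiles and called at a Benjamini-Hochberg adjusted p under 0.05 with at least 10 points between the genotype means. Of all tiles, 16.2% were called lower in KO and 0.0796% higher. A valley tile starts under 10% and has no room to lose 10 points, so 0 of the inside tiles were called lower and 7 higher. Without the minimum difference, 2029 inside tiles (9.92%) passed as lower and 44 (0.215%) as higher, against 18.4% and 0.1% of all tiles. At an unadjusted p under 0.05, 3578 inside tiles (17.5%) were lower and 144 (0.704%) higher, against 29.7% and 0.631% of all tiles. The KO and WT samples were separate, with KO lower, in 26.0% of inside tiles, against 31.6% of all tiles, and with KO higher in 2.46%, against 1.54%. The WT mean of these tiles was chosen under 10%, so the counts describe them and the balance of directions is not a test.

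The flanks differed far more in points. Their mean level was 52.9, 52.7 and 53.5% in KO samples, against 64.7, 63.9 and 64.0% in WT samples. The samples of the genotypes did not overlap, and the means were 53.1 ± 0.410% in KO and 64.2 ± 0.428% in WT (SD, n = 3 each), so KO minus WT was -11.1 points. The two-sided exact permutation test gave p = 0.10, the smallest that 3 against 3 samples allow. After centring samples on their medians it was -6.23 points, and after scaling them to one mean -6.39 (p = 0.10 each, exact). Over all tiles KO averaged 63.7 ± 0.140% and WT 69.0 ± 0.451%, so KO minus WT was -5.36 points. Of the flank tiles, 30623 (40.2%) were called lower in KO, against 16.2% of all tiles and 24.5% of tiles 100 kb from these valleys. Another 47 (0.0618%) were called higher, against 0.0796% of all tiles. The split of flank calls was 99.8% lower to the rest higher, and it was 97.9% lower with samples centred on their medians and 96.8% lower with samples scaled to one mean. For all tiles the share of calls that were lower was 99.5% as deposited, 87.7% centred and 80.7% scaled.

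The difference was larger within 2 kb of the valley than farther out. In the tiles 1 kb away KO averaged 35.7 ± 0.447% and WT 47.6 ± 0.414%, so KO minus WT was -11.9 points, and 44.1% of tiles were called lower. At 2 kb the levels were 61.6% in KO and 73.4% in WT, so KO minus WT was -11.8 points with 42.7% called lower. At 3 kb they were 62.5% in KO and 72.1% in WT, so KO minus WT was -9.56 points with 33.7% called lower. With valleys under 5% in WT the difference was -10.25 points at 1 kb and -12.2 at 2 kb, so the order of these nearest distances turned. With samples centred on their medians it was -7.06, -6.93 and -4.67 points at 1, 2 and 3 kb, and with samples scaled to one mean -8.59, -6.37 and -4.13. Farther out the difference was -8.10 points at 10 kb, -7.78 at 20 kb, -7.57 at 50 kb and -7.47 at 100 kb. The share called lower was 27.2% at 10 kb, 24.8% at 50 kb and 24.5% at 100 kb, still above the 16.2% of all tiles. As a ratio of KO to WT the levels stood at 0.710 inside, 0.749 at 1 kb, 0.839 at 2 kb and 0.867 at 3 kb, against 0.887 at 10 kb and 0.896 at 100 kb. The held-out WT samples read 48.3, 47.4 and 47.4% at 1 kb, above all KO samples.

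**Figure D1:**
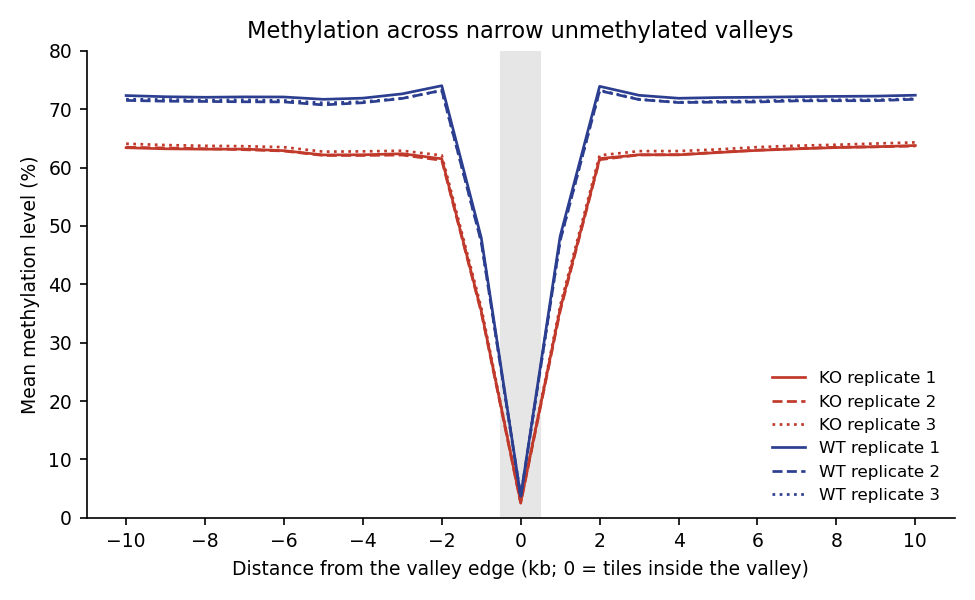
Mean methylation level (%) of 1 kb tiles by distance from the edge of narrow valleys (kb, negative on the side of lower coordinates), one line for each of the 3 KO and 3 WT samples, with the tiles inside the valley at 0. At 2 kb the KO lines lie at 61.3 to 62.1% and the WT lines at 73.2 to 74.0%, and KO lines stay below WT lines at every distance drawn.

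In WT the methylation next to a valley overshot its surroundings, and in KO it did not. The level at 2 kb minus the level at 8 to 10 kb was -1.93, -2.19 and -1.93 points in KO samples, against 1.73, 1.71 and 1.55 points in WT samples. KO samples thus had their lower level close to the valley and WT samples their higher level there, -2.02 ± 0.152 against 1.66 ± 0.0975 points (SD, n = 3 each). The difference was -3.68 points (exact permutation test, p = 0.10, the smallest possible). The rule asks for a WT level of at least 10% in all tiles within 5 kb, and when the valleys were chosen from 2 WT samples the held-out WT sample still gave 1.71, 1.66 and 1.54 points. This quantity was chosen after the profiles had been seen. It was positive in WT for valleys of 1 tile (-0.788 in KO, 2.72 in WT) and 2 tiles (-2.80 in KO, 0.783 in WT), but negative in both genotypes for 3 tiles (-6.38 in KO, -1.53 in WT) and 4 tiles (-9.44 in KO, -3.69 in WT). Around wide canyons it was -15.1 points in KO and -10.1 in WT, and around crowded narrow runs -9.28 in KO and -5.08 in WT. KO minus WT was -4.91 points at wide canyons and -4.20 at crowded runs. The extra loss close to the valley in KO was thus not particular to narrow isolated valleys.

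Most valleys had a called loss in some flank tile and few in all 6. At least 1 flank tile was called lower in KO at 10729 of the 13347 valleys with a measured flank (80.4%), against 38.8% for the same window around any tile. All 6 flank tiles were called lower at 652 of the 10462 valleys with 6 measured (6.23%), against 2.16%. At least 1 was called higher at 46 valleys (0.345%), against 0.33%, a share near the background, and 18 of them also had one called lower. No flank tile was called at 2590 valleys, and both sides held a lower tile at 6052. The flank difference of single valleys had a median of -9.66 points, with 10% of valleys below -20.7 and 10% above -3.36, and it ranged from -56.0 to 7.06. It was above 0 at 177 valleys. The 3 KO flank means lay below the 3 WT flank means without overlap at 11261 of the 13347 valleys and above them at 6. Single flank tiles did so in 56.4% and 0.505%, and all single tiles in 31.6% and 1.54%. A mean of up to 6 tiles is steadier than a single tile, and no share was computed for like means elsewhere. Across 13278 valleys with both sides measured, the differences on the sides of lower and higher coordinates correlated at r = 0.406, as a description of neighbouring places in the same libraries. A total of 183 flank tiles served 2 valleys each.

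At many valleys the unmethylated run was longer in KO. Single samples were compared with single samples, with valleys chosen from 2 WT samples and the third held out. The run of tiles under 10% was longer than the chosen one at 25.1 to 27.9% of valleys in a KO sample, against 4.51 to 5.39% in a held-out WT sample. It was equal at 69.5 to 72.0% in KO samples and 84.7 to 86.2% in WT samples. It was shorter at 1.15 to 1.80% in KO samples and 3.86 to 5.06% in WT samples, and gone at 1.28 to 2.37% in KO samples and 4.51 to 5.74% in WT samples. Runs of 5 tiles or more, the width of a canyon, were reached at 1.98 to 2.28% of valleys in KO samples and 0.112 to 0.187% in WT samples. The ranges of the genotypes did not overlap in any of these shares.

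**Figure D2:**
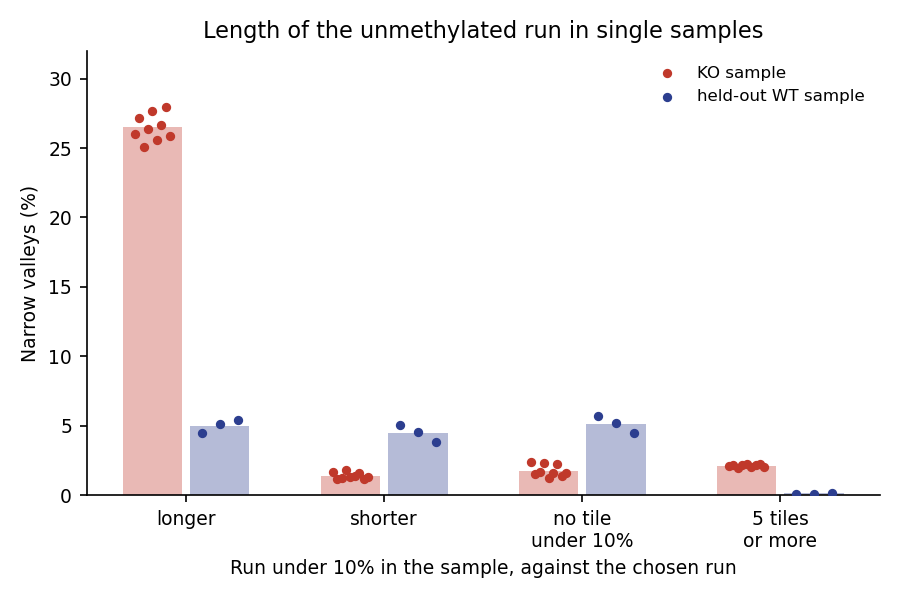
Share of narrow valleys (%) whose run of tiles under 10% in a single sample was longer than, shorter than or absent against the run chosen from 2 WT samples, or reached 5 tiles, with KO samples left of held-out WT samples. Points are the 9 readings of KO samples (3 samples under 3 choices) and the 3 readings of held-out WT samples, and bars are their means. KO readings of longer runs lie at 25.1 to 27.9% and WT readings at 4.51 to 5.39%.

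In the KO mean, against the run chosen from all 3 WT samples, 3398 valleys (25.4%) were longer, 9733 equal, 95 shorter and 131 had no tile under 10%. Of the longer ones 2749 had gained 1 tile, 464 had gained 2, 104 had gained 3 and 81 had gained 4 or more. The nearest tiles on both sides were under 10% in KO at 422 valleys and on one side at 2993, while 9942 had neither. By width, 27.0% of 1-tile, 21.1% of 2-tile, 27.2% of 3-tile and 40.6% of 4-tile valleys were longer. In all, 271 narrow valleys lay in runs of 5 tiles or more in the KO mean. Each run, here and in single samples, was counted whole. A long run can therefore take in other valley tiles of WT and can serve more than 1 valley.

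The share of nearest tiles that joined the valley fell with their WT level, as the 10% limit itself makes likely. Of the nearest tiles at 10 to 20% in WT, 56.4% were under 10% in KO, against 21.1% of those at 20 to 30%, 9.65% at 30 to 40%, 3.94% at 40 to 60%, 0.998% at 60 to 80% and 0.102% at 80 to 100%. The differences in points were larger in the middle of the range: -5.35 for nearest tiles at 10 to 20%, -11.5 at 30 to 40%, -15.6 at 60 to 80% and -12.9 at 80 to 100%. The share called lower was 15.3% at 10 to 20% and 39.2% at 20 to 30%, and lay between 49.5 and 53.7% in all higher classes. The bins were set on WT values, and a tile nearer to 10% in WT needs a smaller loss to fall under it. The shares are thus a description, and tiles of like WT level elsewhere were not set beside them.

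Valleys with no listed gene start had deeper flank losses than those at a listed start. A RefSeq gene start lay in 7759 valleys, whose flanks averaged 55.1% in KO and 65.3% in WT, so KO minus WT was -10.3 points with 36.6% of flank tiles called lower. In 1901 valleys a gene end of the RefSeq table lay without a listed start. A gene end, here and below, is either boundary of a gene, so it can be the one where the gene begins. These valleys had flanks of 52.5% in KO and 63.6% in WT, so KO minus WT was -11.1 points and 39.3% called lower. The 2630 valleys inside a gene had flanks of 49.1% in KO and 61.7% in WT, so KO minus WT was -12.6 points with 46.8% called lower. The 1067 valleys outside genes had 49.3% in KO and 63.0% in WT, so KO minus WT was -13.7 points with 52.1% called lower. All these shares stand against 16.2% of all tiles and 24.5% of tiles 100 kb from narrow valleys. The loss at gene starts was smaller by 2.37 points than inside genes and by 3.39 points than outside genes (exact permutation tests over samples, p = 0.10 each, the smallest possible). The run was longer in the KO mean at 23.2% of valleys at starts, 24.7% at ends, 31.6% inside genes and 27.8% outside genes.

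Width went with the loss as well. The flank difference was -10.8 points for 1-tile, -11.2 for 2-tile, -12.8 for 3-tile and -14.3 for 4-tile valleys, and 1-tile valleys differed from 4-tile valleys by 3.53 points (exact permutation test, p = 0.10). Flank levels of 4-tile valleys were 43.2% in KO and 57.4% in WT, against 52.8% in KO and 63.5% in WT for 1-tile valleys. Chromosomes differed little, from -10.1 points on chromosome 16 to -11.7 on chromosome 11.

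**Figure D3:**
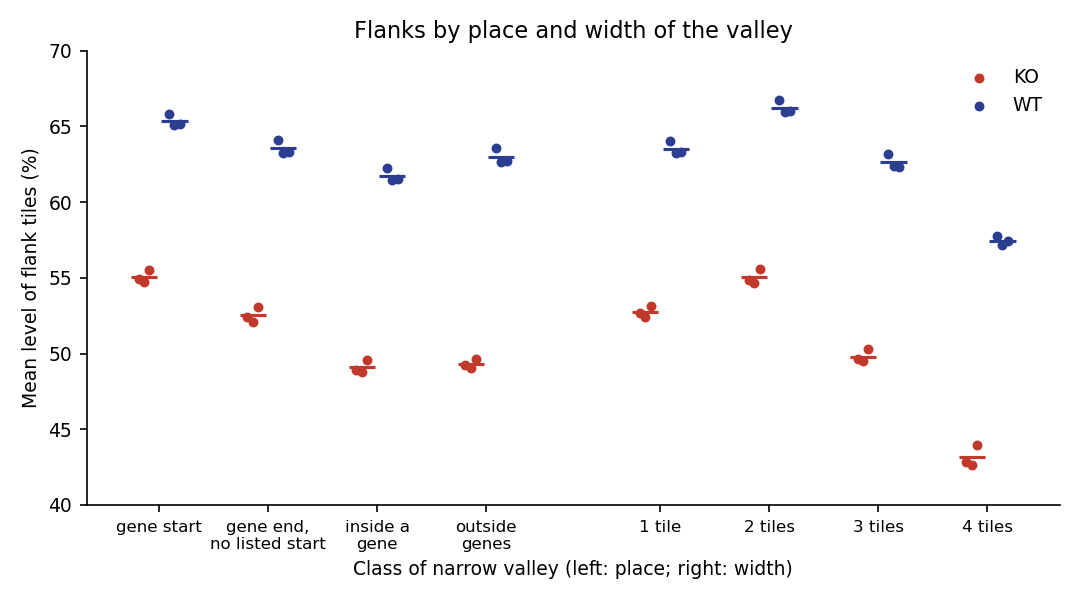
Mean level of flank tiles (%, axis from 40 to 70) of narrow valleys by place (left) and width (right), with KO left of WT, points for the 3 samples of each genotype and lines for their means. KO points lie below WT points in every class, with KO minus WT at -10.3 points at gene starts, -13.7 outside genes and -14.3 around 4-tile valleys.

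The side of the valley on which the gene lay made little difference. At 6661 valleys that held the end of 1 protein-coding gene, the gene side differed by -10.4 points between KO and WT and so did the outer side, and the contrast between sides was -0.02 points (exact permutation test, p = 1.0). It changed sign with distance. At 1 kb the loss on the gene side was the smaller by 0.91 points (exact permutation test, p = 0.10) at 2 kb it was the larger, with a contrast of -0.66 points (p = 0.10, exact), and at 3 kb the contrast was -0.38 points (p = 0.2, exact). With strand taken from the promoter table, downstream minus upstream gave 0.17 points in all (p = 0.3, exact) and 0.71 at 1 kb (p = 0.10, exact). Valleys with starts on both strands (1421) had a flank difference of -9.02 points and those with starts on 1 strand (6338) -10.6 points, a contrast of 1.54 points (exact permutation test, p = 0.10).

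The flanks of narrow valleys had a smaller loss than those of wide canyons and of crowded runs. The differences were -11.1 points for narrow valleys, against -12.8 for wide canyons and -13.2 for crowded runs. The contrasts of 1.67 and 2.09 points each gave p = 0.10, the smallest that the exact permutation test allows. With valleys under 5% in WT the contrasts were 0.55 (exact permutation test, p = 0.2) and 0.58 points, and with samples scaled to one mean 3.19 and 2.96. At 1 kb narrow valleys and wide canyons did not differ beyond their spread (0.08 points, exact permutation test, p = 0.8), while at 2 kb the loss at narrow valleys was smaller by 2.42 points and at 3 kb by 2.32 (p = 0.10 each, exact). With crowded runs the contrast was 0.94 points at 1 kb, 2.71 at 2 kb and 3.24 at 3 kb (p = 0.10 each, exact permutation tests). Flank levels also differed in WT: narrow valleys had 53.1% in KO and 64.2% in WT, and wide canyons 33.5% in KO and 46.3% in WT. Among flank tiles at 20 to 60% in WT, the contrast was 0.89 points with wide canyons and 1.90 with crowded runs. Set against canyons of at least 10 tiles, the direction turned, and narrow valleys had the larger loss, by a contrast of -5.53 points.

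**Figure D4:**
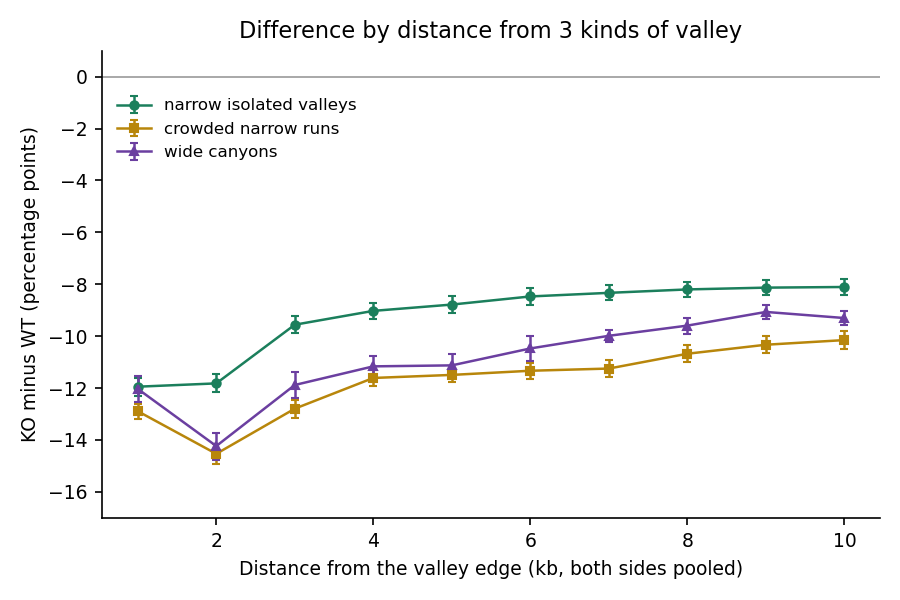
KO minus WT level (percentage points) by distance from the edge (kb, both sides pooled) for narrow isolated valleys, crowded narrow runs and wide canyons, with error bars that show the standard error of the difference between the 3 KO and 3 WT samples. At 1 kb narrow valleys lie at -11.9 and wide canyons at -12.0, and at 2 kb at -11.8 and -14.2.

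Promoters in narrow valleys were of the CpG-rich kind. The 8914 promoters whose start lay in a narrow valley held a median of 24 CpG sites in 300 bases and a GC content of 64%, against 19 sites and 60.3% for 479 promoters in wide canyons and 7 sites and 53% for all 31396 promoters of the table. The letters GGGCGG, the GC box bound by SP factors, stood on either strand in 71.4% of them, against 57.0% in wide canyons and 36.0% of all promoters. CCGGAAG, an ETS-type motif, stood in 18.1%, against 4.59% in wide canyons and 9.004% of all. TATAAA, the TATA box, stood in 5.31%, against 10.9% in wide canyons and 13.6% of all. CCAAT stood in 36.0% (39.2% in wide canyons, 37.3% of all), and CACGTG, the E-box of MYC, in 10.4% (9.60% in wide canyons, 7.14% of all). CpG content went only weakly with the flank losses. In 4 classes of the promoter's CpG number (0 to 18, 19 to 25, 26 to 33 and 34 to 67 sites) the flank differences were -10.04, -9.64, -9.98 and -11.5 points, and the highest class differed from the lowest by -1.47 points (exact permutation test, p = 0.10). Across 6584 valleys the CpG number and the flank difference correlated at Pearson r = -0.0797 and Spearman rho = -0.0918, given as a description.

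The largest flank losses were described for valleys with all 6 flank tiles measured and the end of exactly 1 protein-coding gene. They were ranked by KO minus WT, so the values describe the choice. Around Foxd2, a forkhead transcription factor (chr4:114908001-114910000, a gene start), the flanks had 12.05, 7.90 and 7.22% in KO samples, against 65.4, 61.9 and 58.5% in WT samples. All KO flanks were near the level of a valley and all WT flanks were methylated, and the tile 2 kb away on the side of lower coordinates differed by -71.4 points (SE 3.51, limma adjusted p = 8.6e-11). Around Ntn1, which encodes the guidance cue netrin (chr11:68385001-68387000, a gene end with no listed start), they had 8.32, 7.97 and 8.99% in KO samples, against 59.1, 55.8 and 53.7% in WT samples. Lhx6, a LIM homeobox factor (chr2:36104001-36106000, a gene start), had 13.9, 15.2 and 13.2% in KO samples, against 61.2, 57.3 and 58.5% in WT samples. Egr3, an immediate early zinc finger factor (chr14:70075001-70079000, a gene end), had 9.60, 17.1 and 12.5% in KO samples, against 56.8, 56.5 and 59.5% in WT samples. In each of these the genotypes were far apart while the mean inside the valley stayed under 4% in both.

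Obsl1, a cytoskeletal adaptor related to obscurin (chr1:75505001-75507000, a gene start), kept an intermediate flank, with 35.5, 36.9 and 37.3% in KO samples, against 82.4, 83.1 and 82.8% in WT samples. Its WT flanks were the most methylated of the 8 valleys, and its promoter, printed above, was the poorest in CpG of the 4 shown. Fzd7, a receptor for WNT ligands (chr1:59481001-59484000, a gene start), had 19.4, 21.6 and 19.6% in KO samples, against 64.5, 66.4 and 62.7% in WT samples. On its side of higher coordinates, which is downstream of the start, the level was 3.12% in KO and 60.7% in WT, and on the other side 37.3% in KO and 68.4% in WT. Cxxc5, a zinc finger protein that binds unmethylated CpG (chr18:35829001-35832000), had 20.01% in KO and 63.0% in WT, and Gm31513 (chr12:84192001-84195000) 21.3% in KO and 64.1% in WT.

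The longest KO runs around narrow valleys were described next, ranked by their length in the KO mean. The ranking covers valleys with all 6 flank tiles measured and the end of exactly 1 protein-coding gene. Each run is counted whole, with any other valley tiles of WT that it takes in, so its length is not growth of 1 valley alone. The 2-tile valley at the start of Hoxb4, a homeobox factor (chr11:96318001-96320000), was part of a run of 96 tiles under 10% in the KO mean. Its flanks had 2.04, 0.497 and 1.01% in KO samples, against 42.0, 39.97 and 40.1% in WT samples. The 2-tile valley at a gene end of Tbx2, a T-box factor (chr11:85832001-85834000), belonged to a run of 16 tiles, with flanks of 1.59, 0.712 and 2.21% in KO samples, against 36.8, 42.0 and 41.6% in WT samples. Both valleys thus had flanks below the valley limit in all KO samples. The run of the 3-tile valley at Grrp1 (chr4:134251001-134254000) was 10 tiles long, with flanks of 7.91% in KO and 33.0% in WT. A length of 9 tiles was shared by 6 of the ranked valleys, among them those at Ntn1, Prdm8, Cdkn2a and Fzd7. Dll4, the Notch ligand of sprouting tip cells (chr2:119325001-119329000, a gene start), was another. Dll4 flanks had 12.98, 18.9 and 18.7% in KO samples, against 43.5, 41.1 and 46.9% in WT samples, and the side of lower coordinates was at 2.05% in KO and 47.3% in WT.

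Some valleys lost methylation on one side and kept most of it on the other. Prdm8, a PR domain factor (chr5:98165001-98169000), had 3.26% in KO and 65.0% in WT on the side of higher coordinates, against 79.1% in KO and 87.2% in WT on the side of lower coordinates. Cachd1 (chr4:100776001-100778000, a gene start) had 8.89% in KO and 69.7% in WT on the side of higher coordinates, against 77.6% in KO and 91.4% in WT on the other. Tcf7, a factor that acts in WNT signalling and T cells (chr11:52282001-52285000, a gene start), had 14.4% in KO and 69.97% in WT on the side of higher coordinates, against 76.3% in KO and 86.1% in WT on the other. These 3 were chosen for unequal sides, so the contrast is a description.

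**Figure D5:**
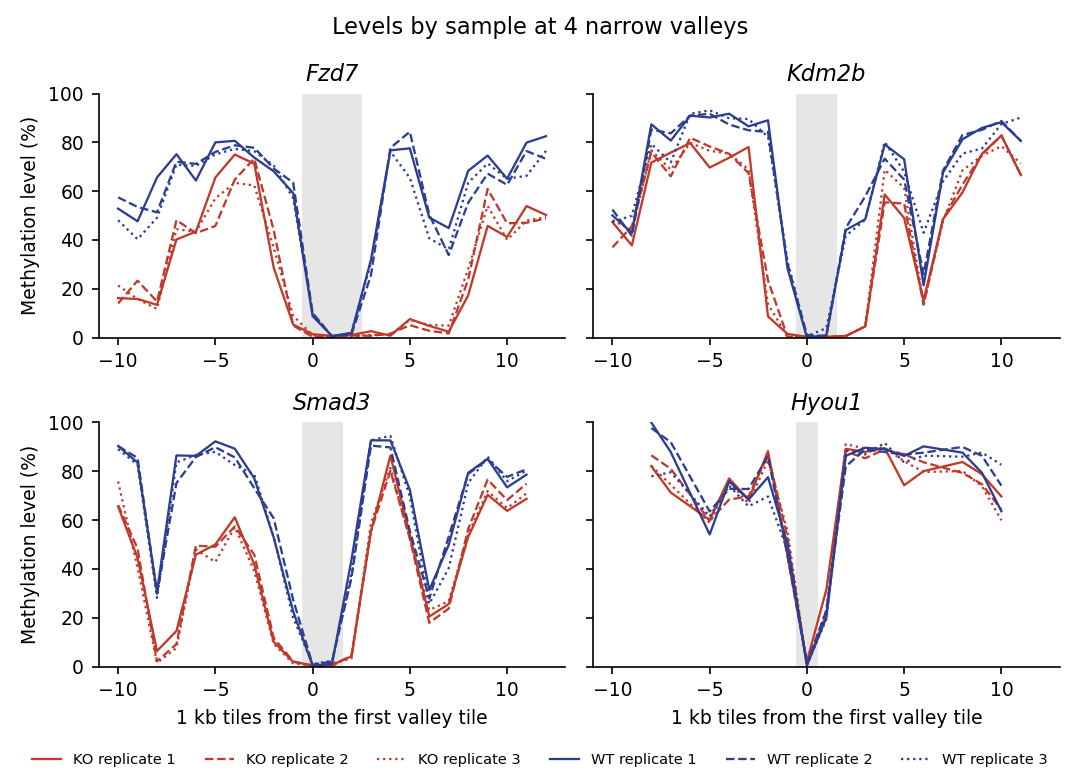
Methylation level (%) of 1 kb tiles around the valleys at Fzd7, Kdm2b, Smad3 and Hyou1, by position from the first valley tile (in tiles), one line for each of the 3 KO and 3 WT samples, with the valley shaded and lines drawn straight across tiles with no value. KO lines run below WT lines in most tiles beside the first 3 valleys, and at Hyou1 the flanks average 67.9% in KO and 65.1% in WT.

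At the other end of the ranking stood the 6 highest flank differences among valleys with all 6 flank tiles measured and the end of exactly 1 protein-coding gene. They had KO above WT by 1.79 to 2.96 points. Over all valleys with a measured flank the highest difference was 7.06 points. Lrguk (chr6:34029001-34030000, a gene start) had flanks of 72.8, 66.6 and 68.2% in KO samples, against 65.5, 67.3 and 65.9% in WT samples. The genotypes overlapped, but its nearest tile on the side of lower coordinates was called higher in KO by 12.7 points (SE 3.40, limma adjusted p = 0.012). That call was lost without KO replicate 1, where the flank difference was 1.16 points, and without WT replicate 2, where it was 3.49. Cacna1b, the pore subunit of a neuronal calcium channel (chr2:24762001-24764000, a gene start), had 61.0, 64.0 and 62.4% in KO samples, against 58.2, 55.7 and 66.2% in WT samples. They overlapped too, and its nearest tile on the side of higher coordinates was called higher by 16.9 points (SE 4.61, limma adjusted p = 0.013). The call was lost without KO replicate 2, where the flank difference was 1.67 points, and without WT replicate 2, where it was 0.29. Hyou1, a chaperone of the endoplasmic reticulum (chr9:44379001-44380000, a gene end), had 68.5, 67.4 and 67.8% in KO samples, against 65.4, 66.4 and 63.6% in WT samples. KO was above WT there without overlap, but no flank tile was called, and the smallest limma adjusted p was 0.081. Flanks averaged 57.2% in KO and 55.1% in WT at Ptger3, a prostaglandin receptor, 51.1% in KO and 49.2% in WT at Stk32b, a kinase gene, and 62.3% in KO and 60.5% in WT at Ube4a, a ubiquitin ligase. No tile was called at these 3 either, and the sign of the flank difference turned without WT replicate 2 at Ube4a and without WT replicate 3 at Stk32b.

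The inside level was higher in KO at 3114 valleys. The 5 gains given here were the largest among valleys with all 6 flank tiles measured and the end of exactly 1 protein-coding gene. They mostly rested on 1 sample. Larger gains outside that choice, such as 37.9 points at Rnf157 and 10.6 at Nell1, are described in the next paragraph. Amigo2, which encodes a membrane adhesion protein (chr15:97247001-97248000, a gene start), had 20.6, 0.524 and 0.624% in KO samples, against 0.218, 0.145 and 0.309% in WT samples. A930018P22Rik (chr2:104122001-104123000) had 13.8, 0.720 and 0.585% in KO samples, against 1.25, 0.889 and 0.854% in WT samples. In both a single KO sample, replicate 1, was high, although the other KO samples at Amigo2 also lay above WT. Tnk2, a tyrosine kinase (chr16:32643001-32645000), had 2.10, 1.64 and 16.2% in KO samples, against 1.55, 2.80 and 2.22% in WT samples, with replicate 3 high. Taco1, an activator of mitochondrial translation (chr11:106066001-106067000), had all 3 KO samples above the WT samples by several points, with 10.5, 12.6 and 10.1% in KO samples, against 6.13, 4.20 and 8.35% in WT samples. At Oxct2a, a ketone body enzyme (chr4:123323001-123324000), the genotypes overlapped, with 15.7, 9.77 and 11.7% in KO samples, against 11.8, 3.08 and 7.37% in WT samples. The flanks of all 5 were lower in KO, with differences of -23.3 to -5.68 points.

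Of the 7 inside tiles called higher, 3 lay in genes, and they are named after their values were seen. Their WT means were chosen under 10%, which favours a higher KO level, so no p is given for them. The tile in Nell1 (chr7:50293001-50294000) had 24.2, 17.96 and 19.2% in KO samples, against 12.3, 7.54 and 9.86% in WT samples. Pex7, a peroxisomal import receptor (chr10:19907001-19908000), had 29.7, 10.8 and 18.8% in KO samples, against 11.9, 7.52 and 7.41% in WT samples, which overlap. Rnf157 (chr11:116390001-116391000) had 60.3, 60.03 and 19.3% in KO samples, against 11.4, 0.812 and 13.7% in WT samples. The other 4 lay outside genes, with KO means of 18.1 to 26.4% and WT means of 6.51 to 9.46%.

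Gene groups were read against all narrow valleys, of which 80.4% had a flank tile called lower, with a median flank difference of -9.66 points. The groups were chosen with earlier results of these data known, so their counts are descriptions. The genes named in each group were picked for the smallest limma p of a flank tile, so they are not typical members. Among genes of endothelial identity, 7 of 30 had a start or end in a narrow valley, and all 7 had a lower flank tile, with a median of -13.2 points. At Plvap, a component of the diaphragms of endothelial pores (chr8:71511001-71512000), flanks had 24.7, 18.1 and 21.3% in KO samples, against 55.1, 52.1 and 51.4% in WT samples. At Sox7, an endothelial transcription factor (chr14:63943001-63946000), they had 8.99, 6.10 and 8.34% in KO samples, against 26.4, 25.2 and 25.01% in WT samples. At Eng, a coreceptor for TGF-beta family ligands (chr2:32646001-32648000), they had 34.4, 31.6 and 34.9% in KO samples, against 45.7, 46.1 and 47.9% in WT samples. All 3 had KO below WT without overlap, with Sox7 the least methylated in both genotypes.

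Lung capillary genes sat closer to the average valley. Of the 20 genes, 11 had a narrow valley and 10 of these a lower flank tile, with a median of -9.57 points. Besides Tbx2, described above, Car4, the carbonic anhydrase of lung capillary cells (chr11:84957001-84958000), had flanks of 32.9, 28.9 and 25.3% in KO samples, against 44.5, 49.8 and 50.3% in WT samples. Its nearest tile on the side of higher coordinates differed by -21.4 points (SE 1.83, limma adjusted p = 5.7e-08). Ptger4, a prostaglandin receptor (chr15:5242001-5245000), was lower on the side of lower coordinates only, with 45.9% in KO and 65.9% in WT there and 67.5% in KO and 66.6% in WT on the other side.

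Signalling genes had deeper medians. In the VEGF, Notch and sprouting group 11 of 25 genes had a narrow valley, all 11 with a lower flank tile, and the median was -17.6 points. Unc5b, a netrin receptor of tip cells (chr10:60830001-60832000), had 13.5, 16.7 and 15.6% in KO samples, against 47.4, 47.9 and 48.7% in WT samples, with both sides alike. Hey2, a Notch target (chr10:30842001-30845000), had 33.8, 30.9 and 37.5% in KO samples, against 53.9, 50.4 and 50.5% in WT samples. The run was longer in the KO mean at 8 of these 11 valleys, against 25.4% of all narrow valleys.

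Among genes of shear stress and the immediate early response, 13 of 28 had a narrow valley, all 13 had a lower flank tile, and the median was -18.2 points. Besides Egr3, described above, Egr1, an immediate early zinc finger factor (chr18:34860001-34862000), had 31.8, 32.6 and 36.4% in KO samples, against 61.6, 60.7 and 57.8% in WT samples. Fos, a subunit of the AP-1 transcription factor (chr12:85472001-85475000), had 37.6, 33.1 and 42.2% in KO samples, against 72.4, 68.7 and 68.2% in WT samples. Both genes had all KO samples well below all WT samples. In the TGF-beta and BMP group 18 of 30 genes had a narrow valley, all 18 with a lower flank tile, and the median was -17.6 points. Smad3, a signal transducer of TGF-beta (chr9:63757001-63759000), had 33.3, 33.3 and 32.2% in KO samples, against 63.6, 63.0 and 62.9% in WT samples. Tgfb3, a ligand (chr12:86079001-86080000), had 22.6, 20.5 and 18.7% in KO samples, against 42.1, 37.4 and 37.2% in WT samples, and Smad5, a BMP transducer (chr13:56703001-56704000), 42.6% in KO and 60.1% in WT. None of these samples overlapped between genotypes.

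Few developmental regulators had narrow valleys, 2 of 50. Both had a lower flank tile, and the median was -13.8 points. Lhx2, a LIM homeobox factor (chr2:38339001-38342000), had 7.46, 8.49 and 9.38% in KO samples, against 10.99, 19.4 and 11.5% in WT samples, a flank already low in WT. The genotypes did not overlap there, and the tile with the smallest p, 2 kb away on the side of lower coordinates, differed by -8.73 points (SE 1.64, limma adjusted p = 0.00069). The flank difference at Lhx2 was -0.64 points with samples centred on their medians, and its 1 called tile was no longer called then, with scaled samples, without the variance trend, among tiles with a mean level of at least 10%, or without KO replicate 1, KO replicate 3 or WT replicate 2.

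Genes that most cells use had smaller medians than the signalling groups. Those named below were picked for the smallest limma p of a flank tile, and each lost more than its group median. Of 30 ribosome and translation genes 21 had a narrow valley, 20 of them (95.2%) with a lower flank tile, against 80.4% of all narrow valleys. The median was -9.12 points, near the -9.66 of all narrow valleys. Rps9 (chr7:3703001-3705000) had 10.6% in KO and 30.9% in WT on the side of higher coordinates and 77.3% in KO and 86.9% in WT on the other. Rpl10a (chr17:28328001-28330000) had likewise 18.8% in KO and 47.5% in WT on the side of higher coordinates and 64.9% in KO and 77.4% in WT on the other. Rpl3 (chr15:80082001-80084000) had 56.5% in KO and 69.2% in WT over all its flanks. Among other housekeeping genes 19 of 32 had a narrow valley, 14 (73.7%) with a lower flank tile. The median of -6.81 points was the smallest of the groups. Gapdh, a glycolytic enzyme (chr6:125165001-125167000), had flanks of 41.4% in KO and 59.2% in WT, Sf3b1, a splicing factor (chr1:55026001-55028000), 45.8% in KO and 59.1% in WT, and Hsp90ab1, a chaperone (chr17:45572001-45575000), 70.3% in KO and 82.2% in WT.

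Among cell cycle and repair genes 16 of 27 had a narrow valley, 12 with a lower flank tile, and the median was -10.4 points. Cdkn2a, an inhibitor of the cell cycle (chr4:89294001-89296000), stood far from that median, with 9.22, 13.8 and 10.7% in KO samples, against 55.4, 50.02 and 46.1% in WT samples. E2f1, a transcription factor of cell cycle entry (chr2:154569001-154571000), had 45.5, 37.2 and 48.9% in KO samples, against 58.1, 59.0 and 60.1% in WT samples. Ccnb1, a mitotic cyclin (chr13:100786001-100787000), had 56.6% in KO and 68.7% in WT over its flanks. Of the DNA methylation and chromatin genes 15 of 25 had a narrow valley, 14 with a lower flank tile, and the median was -12.9 points. Kdm2b, which binds unmethylated CpG and recruits Polycomb proteins (chr5:122988001-122990000), had 25.4, 25.3 and 26.2% in KO samples, against 62.6, 62.6 and 62.2% in WT samples. Dnmt3b, the other de novo methyltransferase (chr2:153649001-153650000), had 29.9, 32.4 and 28.4% in KO samples, against 60.8, 56.9 and 56.3% in WT samples. Tet1, which oxidises methylated cytosine (chr10:62886001-62888000), had 25.5% in KO and 56.1% in WT on the side of lower coordinates, against 66.3% in KO and 82.3% in WT on the other.

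Of 18 germline genes, which are silenced by methylation in most body cells, 0 had a narrow valley. Of 23 markers of other cell types 4 had one, all 4 with a lower flank tile and a median of -15.3 points. Cdh1, the cadherin of epithelial cells (chr8:106603001-106604000), had flanks of 33.0, 31.1 and 33.7% in KO samples, against 41.7, 44.1 and 48.2% in WT samples. Spi1, a leukocyte transcription factor (chr2:91115001-91116000), had 49.96% in KO and 60.3% in WT, and Pdgfrb, a receptor of mural cells and fibroblasts (chr18:61045001-61046000), 23.9% in KO and 42.4% in WT. The part of other cell types in these levels was not tested. No narrow valley of any of the 12 groups had a flank tile called higher in KO. Only 0.345% of all narrow valleys had one, so a count of 0 in groups this small is near the background.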

How the data were processed

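Each of the 6 samples was 30 ng of DNA in 3 libraries, per the labels' protocols. The submitters' processing notes name BWA 0.7.8 as a tool and mm10 as the build. The deposited table gives a methylation fraction between 0 and 1 for each 1 kb tile, per the file headers. How the levels were called, smoothed or filtered on coverage is not given in the sources used here. It holds 0 values of exactly 0 and 42 under 1e-06 percent. Fractions were multiplied to percent. Groups followed the genotype label. All tiles entered limma 3.58.1 (R 4.3.3) with a variance trend and Benjamini-Hochberg adjustment over all tiles. Means over classes of tiles were compared with two-sided exact permutation tests over the 3 KO and 3 WT samples, in Python 3.11.15 with scipy 1.17.1. Valleys and tiles are not replicates. Gene positions and promoters came from RefSeq tables of GRCm38.p6, and 332 of 338 listed genes were found. Named genes, from valleys with all 6 flank tiles measured and 1 protein-coding gene, were the 8 largest flank losses, the 6 highest flank differences, the 5 longest KO runs, the 5 highest inside gains, the 3 most unequal sides and up to 3 genes of each of 12 lists with the smallest p. The members, lists and tests were chosen with earlier results of these data known. The alternatives tried were other scales, tests, thresholds, distances, WT choices and left-out replicates. The test was run on simulated tiles drawn independently of each other. That check does not cover the noise that adjacent tiles share in these data. Fits without read counts cannot weigh tiles by depth, so uneven coverage adds to the spread.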

Additional observations from a re-analysis of the deposited data

How the results depend on the processing

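The flank differences at each distance, the contrasts between classes of valley and the level at 2 kb minus that at 8 to 10 kb kept their direction under every alternative run, other than those named here, but not their size or order: values moved by over 1.5 times are given below or beside the result. Centring each sample on its median left 129769 tiles lower and 18197 higher, flank counts of 16737 and 366, 43 inside tiles higher and an inside difference of 3.83 points. Scaling to one mean left 128517 lower and 30656 higher, flank counts of 17621 and 580, 12 inside tiles higher, an inside difference of -0.81 points and 18.9 points more longer valleys in KO than in held-out WT, where 21.5 was the value on the deposited scale. A minimum of 20 points left 87938 lower and 20 higher, flank counts of 12165 and 0, and 1 inside tile higher. Adjusted p alone gave 2029 inside tiles lower and 44 higher, and without the variance trend 30 flank tiles were higher.

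With valleys under 5% the inside difference was -0.42 points, 0 inside tiles were higher and the gene side minus the outer side was 0.21. Under 15% the inside difference was -1.73, with 372 inside tiles lower and 17 higher. Valleys from all 6 samples gave -1.85, with 637 lower and 0 higher, and valleys from the KO samples -6.01, with 4951 lower and 0 higher, and a gene side contrast of 0.0805. Read in the held-out WT sample, the inside difference was -1.22 points. Flanks of 1 kb held 11466 lower and 27 higher tiles and a gene side contrast of 0.91. Canyons of at least 10 tiles turned the contrast with narrow valleys to -5.53. Valleys from the KO samples gave contrasts of 4.04 points with wide canyons, 4.20 with crowded runs and 4.18 for gene starts minus inside genes, and valleys from all 6 samples 2.94 with wide canyons. The contrast by width was 2.07 under 15%, where that with wide canyons was 2.70, and gene starts minus inside genes was 1.39 with flanks of 1 kb. Run limits of 5% and 15% gave 19.002 and 23.3 points more longer valleys in KO.

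Leaving out one replicate moved the gene side contrast between -0.16 and 0.10 points and the inside tiles higher between 6 and 15. It moved the flank difference of Ube4a between -0.780 (without WT replicate 2) and 3.19 points, and that of Stk32b between -0.0306 (without WT replicate 3) and 3.74. Samples with the same replicate number did not deviate together (r = 0.00563, -0.00321 and 0.0110 across tiles), and with the replicate number as a block 30815 flank tiles were lower and 56 higher, with 0 inside tiles lower and 8 higher. For the results named here the cause was not tested. Missing read counts limit every call, and adjacent tiles shared noise at r = 0.531 to 0.553 across tiles.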

Other observations

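The same rule applied to the mean of the KO samples gave 21698 runs of tiles under 10%, against 15818 from the WT samples. Of the runs chosen in KO, 16728 were narrow and isolated and 861 were at least 5 tiles wide, against 13357 and 430 chosen in WT. By distance to the nearest other valley tile, the flanks of the 1805 narrow valleys with one at 6 to 10 kb differed by -11.9 points, with 50.2% in KO and 62.1% in WT. Those of the 935 most isolated narrow valleys differed by -10.1 points, with 51.8% in KO and 61.9% in WT. The 4 inside tiles called higher outside genes were chr1:195241001-195242000, with 21.3% in KO and 8.59% in WT, chr17:36231001-36232000, with 26.4% in KO and 9.46% in WT, chr19:61199001-61200000, with 24.3% in KO and 9.41% in WT, and chr19:61266001-61267000, with 18.1% in KO and 6.51% in WT.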
